A study of Mus musculus with 3 samples.

Results

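A set of 10 genes of bone morphogenetic protein (BMP) signalling were compared between mouse embryonic stem (ES) cells, pluripotent cells of the early embryo, and mouse embryonic fibroblasts (MEF), connective tissue cells grown from dissociated embryos. The set held 3 ligands (Bmp2, Bmp4 and Bmp7), the secreted proteinase Bmp1, the antagonist Grem1, the receptors Bmpr1a and Bmpr2, and the target genes Id1, Id2 and Id3. It took in every gene probe of the arrays whose name in the files equals one of these 10 symbols, which gave 17 probes of 41174 probes for 27962 gene names. All 17 probes were well above background in ES cells or in MEF on all 3 arrays and were tested, out of 29500 probes tested.

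Untreated ES cells were grown in serum with leukemia inhibitory factor, and their RNA, as 3 replicates, was labelled with Cy3. Each replicate was hybridised with Cy5-labelled RNA of MEF, which were kept in a serum medium whose labels name no such factor, on a two-colour Agilent whole-genome array, so that 3 arrays gave 3 ratios of ES cells over MEF. The design text once names the Cy5 sample otherwise than MEF, and the ratios here rest on the name in the sample labels. The MEF RNA counts as 1 control sample and its own spread is left out. Separate cultures are not named in any label for the ES cell replicates, so that p-values cover array-to-array spread alone, possibly of technical origin. All arrays carried the dyes the same way round, so a dye effect on a single probe remains in its ratio. Cell type and growth medium cannot be told apart, and in bulk RNA neither can fewer expressing cells and less RNA per cell.

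BMP ligands are secreted dimers that bind a complex of type I receptors, such as Bmpr1a, and type II receptors, such as Bmpr2. The complex phosphorylates Smad1, Smad5 and Smad9, which enter the nucleus with Smad4 and switch on targets, the Id genes foremost among them. Id proteins lack a DNA-binding region and hold basic helix-loop-helix (bHLH) factors in inactive dimers, and in mouse ES cells grown with leukemia inhibitory factor, BMP and Id genes are known for keeping differentiation in check.

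The sequences that follow are of a ligand probe, Bmp4, and of the targets with the lowest ratios, Id2 and Id3. They are given as the array files hold them, with positions in mouse build mm7. Capitals mark a stop triplet at the end of a probe with no earlier stop in that frame. Whether each probe lies in coding sequence or in an untranslated region was not read from an annotation, since none of that build was used here.
Bmp4 probe, chr14:41704207-41704266, minus strand: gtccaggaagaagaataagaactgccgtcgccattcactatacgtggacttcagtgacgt
Id2 probe 2, chr12:22931820-22932167, minus strand: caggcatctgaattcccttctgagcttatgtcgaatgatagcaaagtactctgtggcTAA
Id3 probe, chr4:135522597-135522771, plus strand: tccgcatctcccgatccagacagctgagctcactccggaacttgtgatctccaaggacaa
All 3 probes are 60 bases long. The listed positions of Id2 probe 2 span 348 bases and those of the Id3 probe 175, so both alignments hold a gap in the genome. Over all 128 pairs of member probes for different genes, the longest run of bases in common was 10.

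In ES cells, 13 of the 17 probes differed from MEF at a limma adjusted p under 0.05 and at least 2-fold, which is the rule for a call here: 2 probes were higher and 11 lower. Over all 29500 probes, 41.0% were called, 19.9% higher and 21.1% lower. The 2 higher probes were both of Bmp7. With the brightest probe of each gene, Bmp7 was called higher and Bmp1, Bmp4, Bmpr1a, Bmpr2, Grem1, Id2 and Id3 lower, while Bmp2 and Id1 were not called, against 42.8% called among 19494 genes, 20.4% higher and 22.5% lower. The median log2 ratio of the 10 genes was −1.72, against −0.05 over all genes tested. Since the set was chosen with earlier results of these data known, these contrasts with all genes are descriptive only. Signals in ES cells and in MEF did not overlap for any of the 17 probes, and each of the 10 genes had 1 sign on all its probes and arrays. The shares of all probes and genes that meet these conditions were not counted, so they are not read as traits of this set. The fold minimum sets the calls, since 95.4% of all probes had an adjusted p under 0.05 without it.

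**Figure D1:**
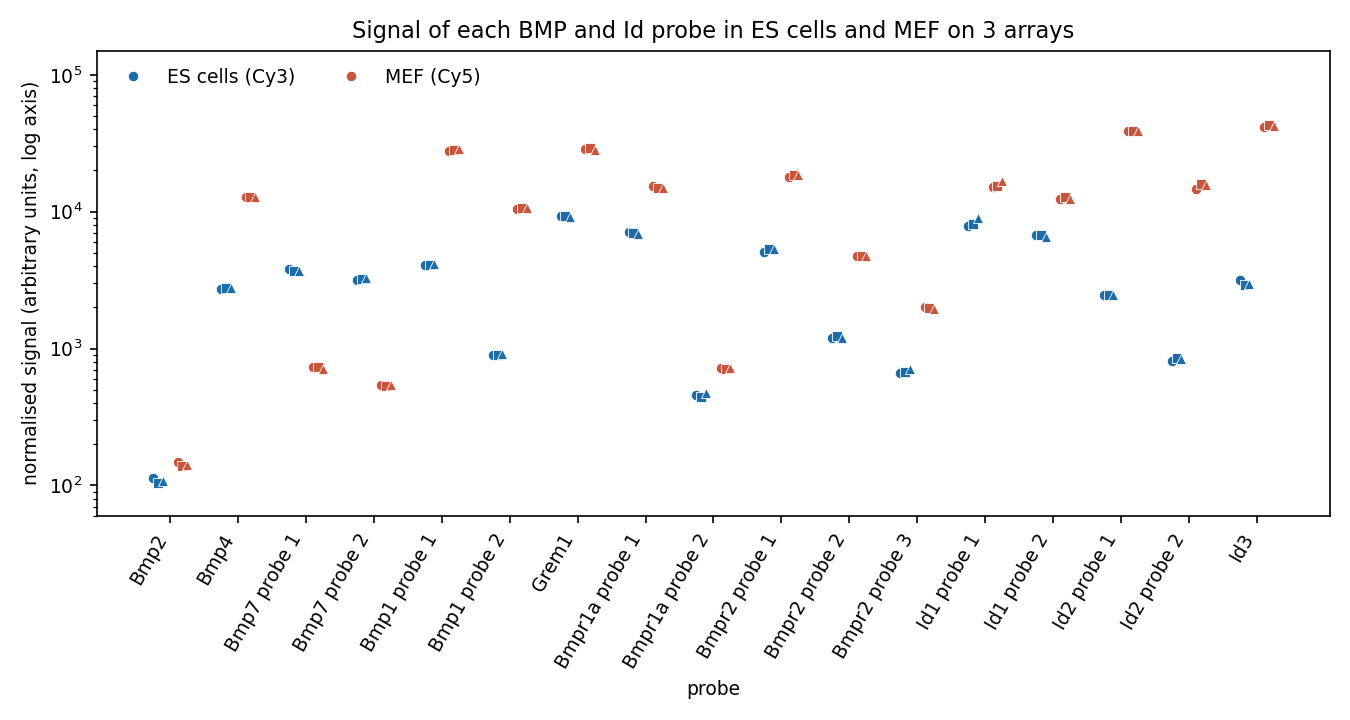
Normalised signal (log axis, arbitrary units) of the 17 probes in ES cells (Cy3, blue) and MEF (Cy5, red), with a circle, square and triangle for the arrays of ES replicates 1, 2 and 3. Levels can be compared between ES cells and MEF within a probe, not between probes; only the Bmp7 probes are brighter in ES cells, and Bmp2 lies between 103 and 148 in both.

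Among the ligands, Bmp7 was higher in ES cells, Bmp4 was lower, and Bmp2 was not called. Bmp7, a ligand with wide roles in organ formation, had normalised signals of 3814, 3711 and 3685 at probe 1 in ES cells, against 732, 737 and 707 in MEF. Its log2 ratio was 2.37 ± 0.028 (SD, n = 3), or 5.15-fold higher (limma adjusted p = 2.65e-07). At probe 2 the signals were 3143, 3215 and 3251 in ES cells and 542, 528 and 541 in MEF. That gave a log2 ratio of 2.58 ± 0.036 (n = 3), or 5.97-fold higher (adjusted p = 2.81e-07). Both probes placed every ES cell replicate well above MEF; they lie side by side on chromosome 2 (chr2:172614090-172614149 and chr2:172614169-172614228, minus strand), with starts 79 bases apart.

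Bmp4, the ligand most used to hold mouse ES cells undifferentiated in serum-free medium, was 4.67-fold lower in ES cells. Its signals were 2745, 2753 and 2751 in ES cells and 12755, 12894 and 12852 in MEF. The log2 ratio was −2.22 ± 0.0060 (n = 3, limma adjusted p = 2.00e-07). ES cells and MEF both gave a Bmp4 signal well above background on each array, so the difference is one of level in bulk RNA. Which cells gave the signal was not tested.

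Bmp2, the ligand closest to Bmp4 in sequence, was dim. Its signals were 114, 103 and 107 in ES cells, not well above background on any array, and 148, 139 and 141 in MEF, where it was well above background on all 3. The log2 ratio of −0.40 ± 0.028 (n = 3, limma adjusted p = 3.09e-05) missed the fold minimum. A probe counts as above background when at least 50% of its spots are. In MEF, 6 of 8 usable Bmp2 spots were on array 2 and 5 of 9 on array 3. Because the ES cell side is only a bound, the ES cell signal was lower by at least 1.22-fold. This takes the ES cell signal as no lower than the dimmest probe above background on each array. With the dyes the same way round on all arrays, it bounds signals and not RNA levels. This value hangs on how low signals are handled: with the processed signals of the scanner software the log2 ratio was −1.46 and with the authors' deposited value table −1.35, both past the fold minimum.

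The Bmp2 and Bmp4 probes and Bmp7 probe 2 were each printed 10 times per array, which shows the error within an array. For Bmp4 the ratio of single spots ran between −2.28 and −2.13 over 30 spots, although the ES cell signal of those spots differed by 1.51-fold to 1.63-fold within an array. The Bmp4 array means had an SD of 0.0060, against 0.010 expected from the spots alone. For Bmp7 the single spots ran between 2.40 and 2.71, and the array means had an SD of 0.036, against 0.020 expected. Both expected values take the spots of an array as independent, which was not tested, and effects of print position shared by the arrays would break this. For Bmp2, 27 spots were usable and ran between −0.50 and −0.27, with 1 spot above background in ES cells and 21 in MEF. All usable spots of each of the 3 probes had 1 sign, and 1 of the Bmp2 spots left out as outliers stood at 0.02.

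**Figure D2:**
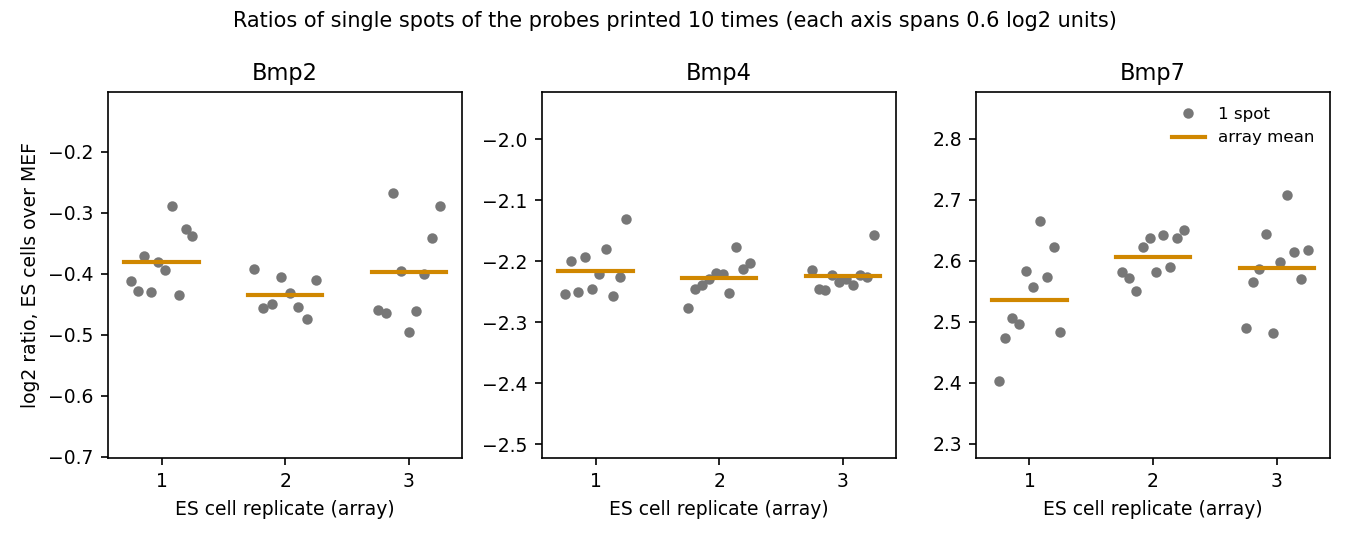
Log2 ratio of ES cells over MEF for each usable spot of the probes printed 10 times (grey points) and the mean of each array (orange lines), by ES cell replicate. Each vertical axis spans 0.6 log2 units around the gene's mean; the Bmp4 spots lie closest together, and the array means of each gene fall within the range of its spots.

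Bmp1 is not a ligand of the family but a zinc proteinase that trims procollagens and cleaves the BMP antagonist Chordin. It was lower in ES cells at both of its probes. Probe 1 (chr14:65119229-65119288, minus strand) had signals of 4061, 4090 and 4125 in ES cells and 27736, 28214 and 28898 in MEF, a log2 ratio of −2.79 ± 0.018 (n = 3), or 6.91-fold lower (limma adjusted p = 1.94e-07). Probe 2 had signals of 894, 892 and 905 in ES cells and 10508, 10565 and 10570 in MEF, a log2 ratio of −3.56 ± 0.0095 (n = 3), or 11.8-fold lower (adjusted p = 1.87e-07). The arrays of the 2 probes did not overlap in ratio. The gene is known for transcripts with different 3′ ends, so the probes need not report the same transcripts.

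Grem1 encodes Gremlin, a secreted protein that binds Bmp2, Bmp4 and Bmp7 and keeps them from their receptors. Its single probe (chr2:113599308-113599367, minus strand) had signals of 9347, 9320 and 9192 in ES cells, against 28713, 29131 and 28225 in MEF. The log2 ratio of −1.63 ± 0.015 (n = 3) was a 3.09-fold lower level in ES cells (limma adjusted p = 3.29e-07). Antagonist and ligand Bmp4 were thus both lower in ES cells, while the ligand Bmp7 was higher.

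Both receptors were lower in ES cells at every probe, and the difference was called for Bmpr2 at all 3 probes and for Bmpr1a at 1 of 2. Bmpr2, the type II receptor, had probe 1 signals of 5104, 5300 and 5301 in ES cells and 17887, 18676 and 18659 in MEF (chr1:60128578-60128637, plus strand), with a log2 ratio of −1.81 ± 0.0042 (n = 3, limma adjusted p = 2.45e-07). Probe 2 averaged 1209 in ES cells and 4745 in MEF, with a log2 ratio of −1.97 ± 0.018 (n = 3, adjusted p = 2.68e-07). Probe 3 averaged 680 in ES cells and 1979 in MEF, with a log2 ratio of −1.54 ± 0.060 (n = 3, adjusted p = 2.11e-06). Across 3 probes that start up to 6986 bases apart, Bmpr2 was 2.91-fold to 3.92-fold lower.

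Bmpr1a, the type I receptor, lay close to the fold minimum. At probe 1 (chr14:31844499-31844558, minus strand) its signals were 7066, 6929 and 6895 in ES cells and 15340, 15017 and 14999 in MEF. The log2 ratio was −1.12 ± 0.0028 (n = 3), or 2.17-fold lower (limma adjusted p = 5.70e-07). At probe 2 (chr14:31847850-31847909) the signals averaged 457 in ES cells and 716 in MEF, and the log2 ratio of −0.65 ± 0.039 (n = 3, adjusted p = 1.22e-05) was not called. The call on probe 1 is lost with median centring of the arrays (−0.84), with the scanner software's processed signals (−0.99) and with the authors' table, and the mean of both probes was −0.88, below the fold minimum. Direction was the same throughout, but whether Bmpr1a differs by 2-fold depends on the probe and the scaling.

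**Figure D3:**
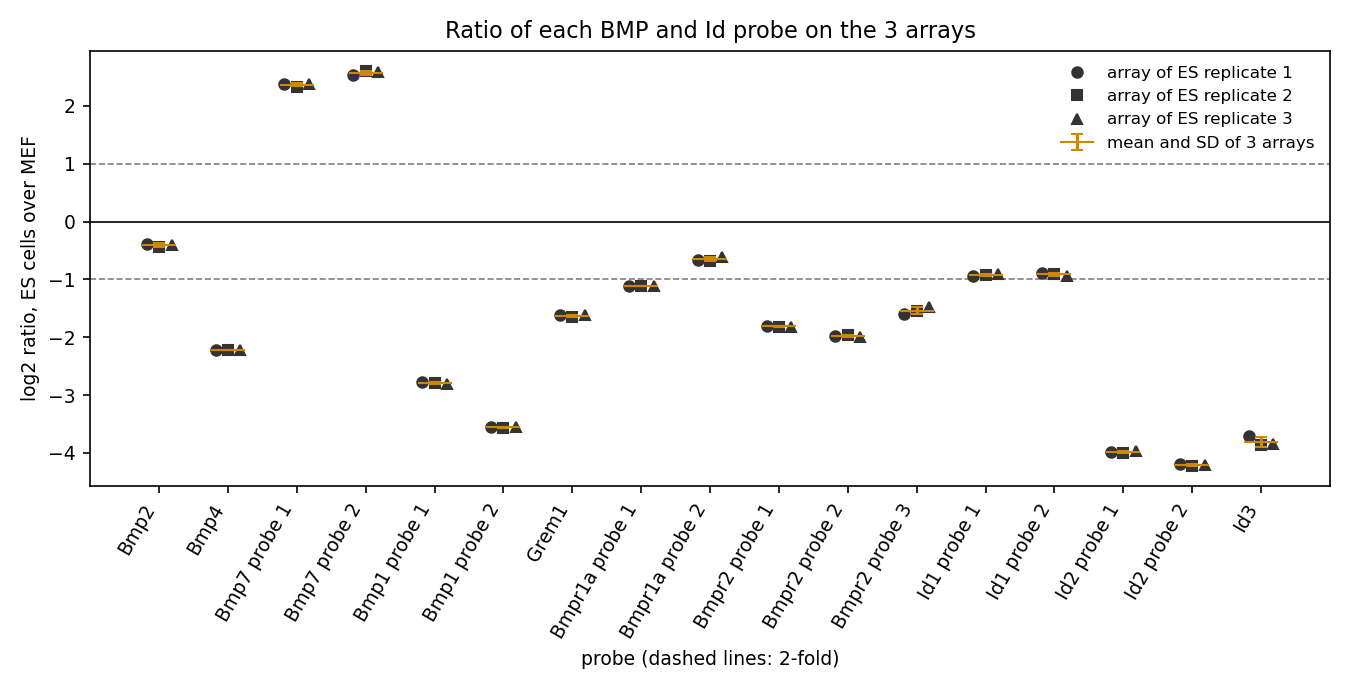
Log2 ratio of ES cells over MEF for each probe on the arrays of ES replicates 1, 2 and 3 (symbols), with mean and SD of the 3 arrays (orange) and dashed lines at 2-fold. Bmp7 lies above 2, the Id2 and Id3 probes lie lowest near −4, and both Id1 probes and Bmpr1a probe 2 fall between 0 and the lower dashed line.

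Id2 and Id3 had the lowest ratios of the 10 genes, while Id1 missed the fold minimum. Id2, which in development restrains the differentiation of many lineages, had signals of 2451, 2443 and 2482 at probe 1 in ES cells and 38623, 38956 and 38875 in MEF (chr12:22930541-22930600, minus strand). Its log2 ratio was −3.98 ± 0.013 (n = 3), or 15.8-fold lower (limma adjusted p = 1.87e-07). At probe 2, printed above, the signals were 806, 849 and 844 in ES cells and 14670, 15844 and 15662 in MEF, a log2 ratio of −4.21 ± 0.019 (n = 3), or 18.5-fold lower (adjusted p = 1.87e-07). Both probes put Id2 more than an order of magnitude lower in ES cells, where its signal was nevertheless well above background each time.

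Id3 had signals of 3163, 2919 and 2961 in ES cells, against 41539, 42758 and 42517 in MEF. The log2 ratio was −3.81 ± 0.084 (n = 3), or 14.0-fold lower (limma adjusted p = 4.38e-07). Its SD was the highest of the 17 probes, whose SDs had a median of 0.019, against 0.030 over all tested probes. Replicate 1 stood a little apart, with a ratio of −3.72, against −3.87 and −3.84 on the other arrays.

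Id1, the family member most often used as a readout of BMP activity, had signals of 7888, 8096 and 8958 at probe 1 in ES cells and 15227, 15285 and 16766 in MEF (chr2:152478157-152478216, plus strand). Its log2 ratio of −0.92 ± 0.023 (n = 3, limma adjusted p = 1.72e-06) is 1.90-fold, just short of the fold minimum. At probe 2 the signals were 6717, 6788 and 6493 in ES cells and 12426, 12757 and 12405 in MEF, with a log2 ratio of −0.91 ± 0.023 (n = 3, adjusted p = 1.82e-06). The 2 probes share 50 of their 60 bases, so they are near repeats of one measurement. All 3 arrays put Id1 signals lower in ES cells than in MEF, but by far less than those of Id2 and Id3: Id1 in ES cells reached 52.7% and 53.2% of the MEF signal at its probes, whereas Id2 reached 6.33% and 5.41% and Id3 7.13%.

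**Figure D4:**
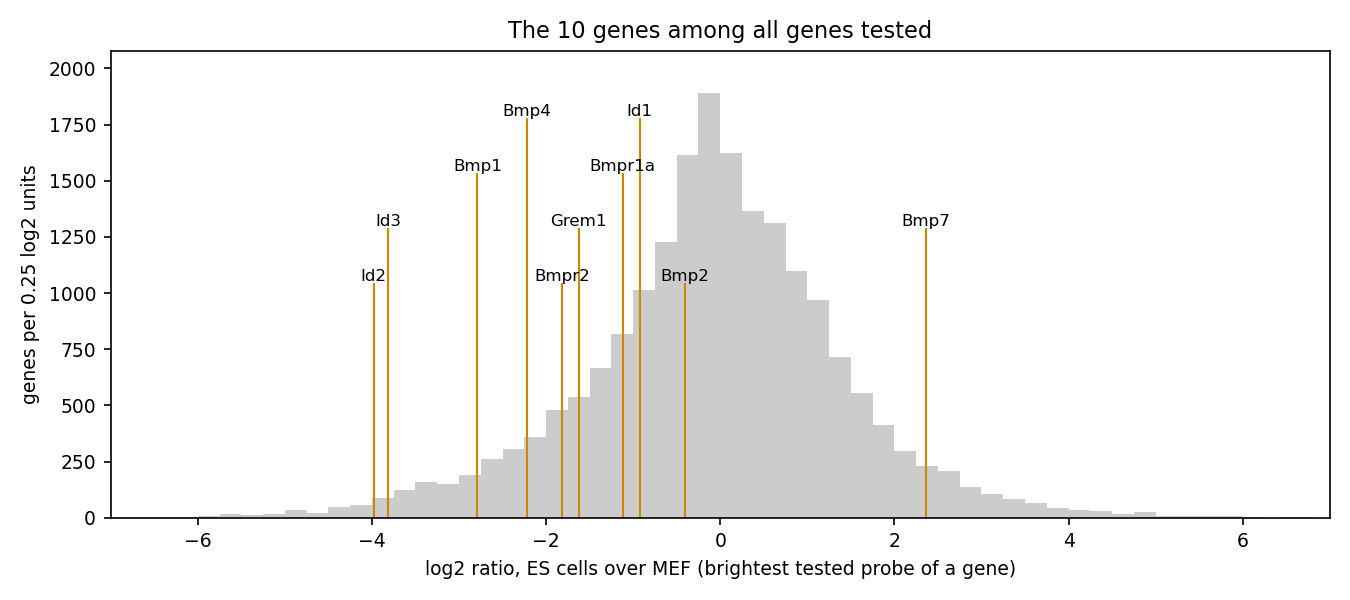
Number of genes per 0.25 log2 units of the ratio of ES cells over MEF (grey bars, brightest tested probe of 19494 genes), with the 10 genes as orange lines whose heights carry no value. Id2 and Id3 lie in the lower tail, Bmp7 in the upper tail, and Bmp2 and Id1 within the bulk.

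Ordered from the lowest to the highest ratio among all 19494 genes tested, Id2 stood at percentile 1.24, Id3 at 1.51, Bmp1 at 4.71 and Bmp4 at 8.0. Bmpr2 followed at percentile 11.5, Grem1 at 13.4, Bmpr1a at 20.5, Id1 at 23.9 and Bmp2 at 36.8, and Bmp7 stood at 95.3. Bmp7 was thus alone among the 10 genes in the upper part of the order. The array ratios of Id2 probe 1 and Id3 did not overlap, whereas those of the 2 Id1 probes did.

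The promoters of Id2 and Id3 are shown because these targets had the lowest ratios and lie on different chromosomes. They cover the 250 bases before the start of each gene, from a table of RefSeq promoters of build GRCm38.p6 in which 6 of the 10 symbols were matched. Capitals mark GGCGCC in Id2, which is of the GC-rich kind that BMP Smads bind, and in Id3 the motif CAGAC, which holds the core of the Smad-binding element. On the minus strand the second motif is spelled GTCTG. Both strands were searched, and the 2 motifs do not overlap here.
Id2, chr12:25096093-25096342, minus strand: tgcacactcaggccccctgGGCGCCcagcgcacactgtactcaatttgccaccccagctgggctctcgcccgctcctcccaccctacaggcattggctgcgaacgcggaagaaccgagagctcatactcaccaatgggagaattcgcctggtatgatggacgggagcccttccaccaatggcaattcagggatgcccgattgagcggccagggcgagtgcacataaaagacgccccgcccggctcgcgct
Id3, chr4:136143572-136143821, plus strand: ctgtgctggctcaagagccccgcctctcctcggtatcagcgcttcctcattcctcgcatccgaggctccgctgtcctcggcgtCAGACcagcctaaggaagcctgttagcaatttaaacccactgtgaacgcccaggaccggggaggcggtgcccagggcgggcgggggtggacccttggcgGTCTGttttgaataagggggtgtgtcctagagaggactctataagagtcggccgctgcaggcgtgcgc
The Id2 window held GGCGCC once, 231 bases before the start, and no CAGAC, and the Id3 window held CAGAC at 167 and 68 bases before the start and no GGCGCC. Of the other listed genes, Bmpr2, Bmpr1a and Grem1 held GGCGCC once each, Grem1 also held CAGAC once, and Bmp4 held neither. Over 32851 promoter windows of this length, 9.59% held GGCGCC and 42.2% held CAGAC. These matches describe letters in a window and are not evidence of binding.

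The other genes of the pathway were read from lists of 62 genes grouped by role, 55 of which were tested. In ES cells 6 were called higher, 29 lower and 20 were not called, where 20.4% of all genes tested were called higher and 22.5% lower. The median log2 ratio was −1.08, against −0.05 over all genes. Because the lists were chosen with earlier results of these data known, these contrasts are descriptive and not independent support. Counts of the single lists that follow rest on few genes and are to be read against the same shares. Among 9 tested ligands of the BMP and GDF families, 2 were higher and 3 lower. Bmp8a stood at 1.67 ± 0.10 (n = 3, limma adjusted p = 7.26e-06), and its near copy Bmp8b, not well above background in MEF, was higher in ES cells by at least 2.13-fold (adjusted p = 1.83e-05). The probes of these 2 similar genes may read each other's transcripts. Bmp3, a ligand that opposes the others, stood at −2.64 ± 0.15 (n = 3, adjusted p = 6.15e-06), and Gdf6, not well above background in ES cells, was at least 4.06-fold lower (adjusted p = 2.20e-06).

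Receptors and coreceptors outside the 10 genes had 7 of 10 members lower and 1 higher in ES cells, with a median log2 ratio of −1.77. Acvr2b, a type II receptor shared with activins, was the higher one at 3.06 ± 0.069, with signals of 3839, 3947 and 4033 in ES cells and 487, 463 and 469 in MEF (limma adjusted p = 4.99e-07). Acvrl1, a type I receptor known from vessels, stood at −1.66 ± 0.061, and the coreceptor Rgma at −2.72 ± 0.015 (n = 3 each). Neo1, which encodes Neogenin, the receptor of Rgma, stood at −2.54 ± 0.013 at its brightest probe, but its 4 probes ran between −2.54 and 0.07 and their mean of −0.93 was not called. The higher type II receptor Acvr2b, read at 1 probe, thus stood opposite Bmpr2, which was lower at all 3 probes. Acvr2a, the type II receptor related to Acvr2b, was also called lower, at −1.71 ± 0.037 (n = 3).

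Like Grem1, secreted antagonists and modulators were lower or not called: of 13 tested, 8 were lower and 5 not called, with a median of −1.38. The lowest were Fstl1, a follistatin-like secreted protein, at −4.36 ± 0.048 (n = 3, limma adjusted p = 1.77e-07), and Bmper, a Chordin-related BMP modulator, at −4.15 ± 0.065 (n = 3, adjusted p = 2.51e-07). Those called with ratios nearest to 0 were the BMP antagonists Chrdl1, at least 2.00-fold lower, and Sostdc1, at least 1.56-fold lower, neither of them well above background in ES cells. The bound of Sostdc1 falls short of the fold minimum, so its call rests on an ES cell signal not well above background.

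The median log2 ratio was −0.53 for 3 tested intracellular transducers and −0.41 for 7 intracellular inhibitors. Of the Smads that carry the signal, Smad5 was called lower at −1.08 ± 0.015 (n = 3, limma adjusted p = 7.65e-07), but not with median centring (−0.80), with processed signals (−0.91), with the authors' table or with the mean of its 3 probes (−0.78). Smad1 stood at −0.53 ± 0.0084 and Smad4 at −0.04 ± 0.032 (n = 3 each), neither called, and Smad9 was not tested, its brighter probe being well above background on 1 array in ES cells and on none in MEF. Smad4 turned to 0.07 with processed signals. Among the inhibitors, 1 was higher and 2 lower, a share near the 42.8% called over all genes: the inhibitory Smad7 stood at 2.35 ± 0.034, its relative Smad6 at −2.44 ± 0.032, and the corepressor Ski at −1.04 ± 0.012 (n = 3 each). Ski lost its call under several alternatives, among them median centring (−0.76). The 2 inhibitory Smads, both known as targets of the pathway they restrain, differed from MEF in opposite directions.

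Among 7 tested BMP-responsive genes outside the set, 4 were lower and 1 higher in ES cells, with a median of −2.23. The homeobox gene Msx2 stood at −2.61 ± 0.0078, the bHLH gene Atoh8 at −2.56 ± 0.061 and the homeobox gene Dlx5 at −2.23 ± 0.17 (n = 3 each). Dusp9, a phosphatase of ERK kinases that BMP signalling sustains in mouse ES cells, was higher at 2.30 ± 0.038 at its brightest probe (n = 3, limma adjusted p = 3.44e-07), while its other probe stood at 0.45. Of the bHLH factors that Id proteins hold, Tcf12 stood at −2.29 ± 0.012 and Tcf4 at −1.68 ± 0.0030, both called lower, and Tcf3 at −0.02 ± 0.024, not called (n = 3 each). The Tcf12 probes ran between −2.29 and −0.36, and Tcf3 turned to 0.09 with processed signals.

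Of the relatives and helpers of Bmp1, the enhancer of procollagen cleavage Pcolce was lower at −3.67 ± 0.016, its relative Pcolce2 was higher at 2.82 ± 0.030, and the related proteinase Tll1 was lower at −2.13 ± 0.076 (n = 3 each). Limma adjusted p-values were 1.62e-07, 1.97e-07 and 1.58e-06. Tll2 was not well above background in either cell type. Bmp1, Tll1 and Pcolce were thus lower in ES cells and Pcolce2, alone of these 4 genes, was higher.

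**Figure D5:**
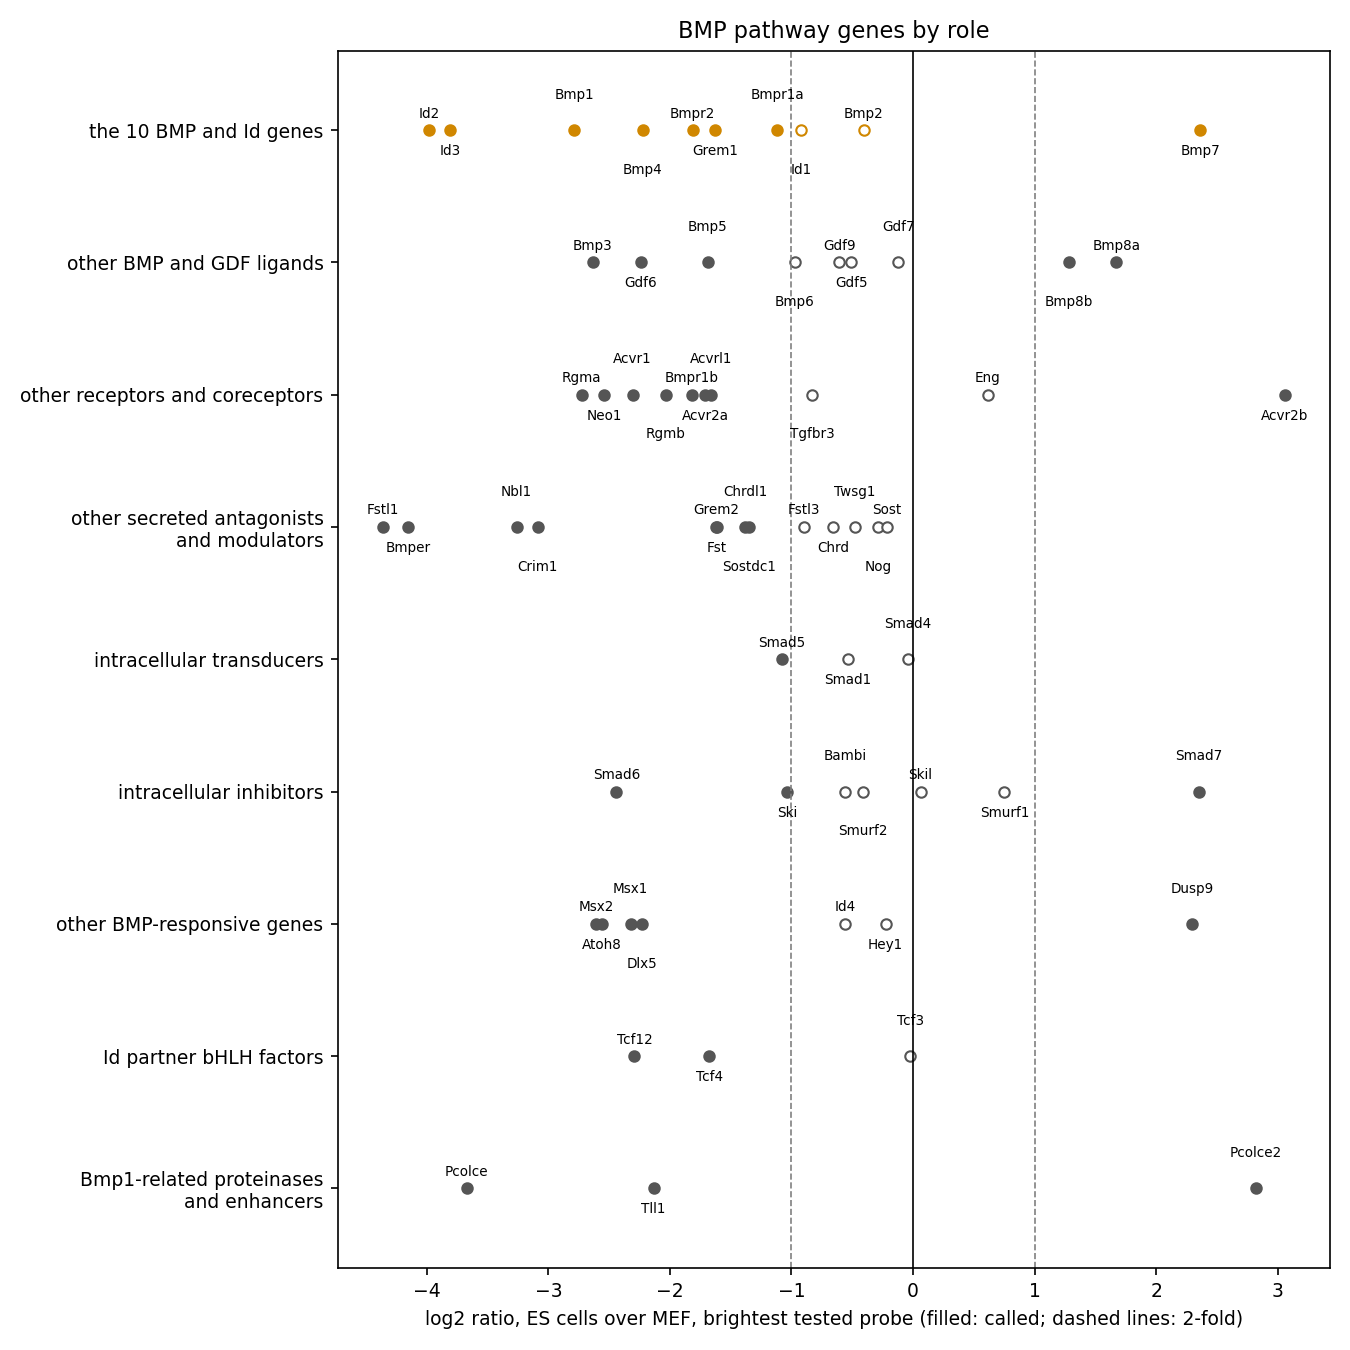
Log2 ratio of ES cells over MEF for the 10 genes (orange) and the tested genes of the other pathway lists (grey) by role, each at its brightest tested probe; filled points were called and dashed lines mark 2-fold. Most called genes lie on the left, lower in ES cells; Bmp7, Bmp8a, Bmp8b, Acvr2b, Smad7, Dusp9 and Pcolce2 are called on the right.

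Marker genes matched the labelled cell types. All 7 ES cell markers were called higher in ES cells and all 7 fibroblast markers lower, with fibroblast markers summing to between 36763 and 38511 in ES cells and between 1809981 and 1826555 in MEF, so that ES cells had 2.03% to 2.13% of the MEF sum. MEF also carried macrophage markers: all 7 were lower in ES cells, summing to between 9361 and 9788 in ES cells and between 449781 and 482718 in MEF. The endothelial markers Cdh5 and Tie1 were not well above background in either, while Tek was higher and Emcn lower in ES cells. The part of other cells in the MEF culture in the ratios of the 10 genes was not tested. Nor was the part of any fibroblasts among the ES cells in the ES cell signals of these genes. Per array, 68.6% to 70.6% of gene spots exceeded background in ES cells and 68.2% to 74.0% in MEF, and ratios of the 3 arrays correlated at 0.998 across probes, which are not independent replicates.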

How the data were processed

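RNA of 3 ES cell replicates (Cy3) was measured against MEF RNA (Cy5) on 3 two-colour arrays of 1 slide. Per the file headers, the authors used Agilent Feature Extraction 9.5.3.1, and probe positions are in mm7. Spot and local background intensities were deposited as pixel brightness, not yet corrected. In the deposited processed intensities, per the file headers, that software had removed background and normalized the dyes. The log10 ratio that the authors deposited is MEF over ES cells. That ratio was sign-turned and converted to log2. The authors' deposited log2 value table came within 0.01 of the result for 85.3% to 87.7% of probes (r between 0.998 and 1.00), so it holds ES cells over MEF. Its column medians were 0.213, 0.0859 and −0.143, so it is not centred.

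Intensities were corrected with normexp (offset 50, which shrinks ratios of dim probes) and loess in limma 3.58.1 under R 4.3.3. Outlier spots were dropped, and the remaining spots of a probe averaged. Probes well above background in ES cells or in MEF on all 3 arrays were tested against 0 (lmFit and eBayes, Benjamini-Hochberg over 29500 probes, or over 19494 genes for lists). Signals are after Aquantile scaling. The bounds for dim probes use these signals and are open to dye bias. The number of arrays limits the precision. The procedure was tested on simulated data with few changed probes and no dye effect on single probes. Such a test cannot show how it handles many changed probes or a dye effect in these data.

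Members and lists were chosen with earlier results of these data known. Named were all 10 genes, the 2 highest and 2 lowest called genes of each list, and lists of up to 4 genes in full. Acvr2a was named in addition, after its value was seen. List genes were named by probe accession or symbol through RefSeq GRCm38.p6. A sequence of 1 probe is not reported here. Alternatives were the processed signals, no background subtraction, offset 0, median centring, other filters, outlier spots kept, no fold minimum, limma's treat, the authors' table, other ways to join probes, and leaving out each replicate.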

Additional observations from a re-analysis of the deposited data

How the results depend on the processing

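No call on the 17 member probes or on the pathway genes turned to the opposite direction in any alternative run. Of the comparisons of single member probes with an alternative, 211 kept their side of the threshold, 6 passed it anew and 3 lost it. The 3 lost ones are Bmpr1a probe 1, as given above; the 6 are Bmp2 with processed signals, with the authors' table and without the fold minimum, and Bmpr1a probe 2 and both Id1 probes without the fold minimum. Without the fold minimum, by construction, 28140 probes were called, 13851 higher and 14289 lower, against 12095, 5860 and 6235 with it, and 44 pathway genes were lower, against 29. Leaving out each replicate in turn gave between 11984 and 12181 called probes, and kept 2 higher and 11 lower member probes and 6 higher and 29 lower pathway genes. With median centring the balance of called probes turned round, to 7179 higher and 5332 lower, and so it did with processed signals, to 7800 higher and 6875 lower. Median centring moved the median of all probes by 0.17 on the log2 scale. Counting genes called at all probes gave 7 of 10, at the brightest probe 8, and by the mean of probes 7. The count of 29 lower pathway genes fell to 25 by the mean of probes. It was also 25 with only probes above background in both ES cells and MEF, 27 with median centring and 31 with offset 0. No paired analysis was possible because each array holds 1 ES cell replicate against the same MEF RNA, so that no second group carries replicate numbers. Slide as a block was not run, since all arrays lay on 1 slide. Signal over background limits Bmp2, whose ES cell value is a bound.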

Other observations

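The sum of macrophage markers in ES cells was 2.03% to 2.08% of that in MEF, close to the 2.03% to 2.13% of the fibroblast markers. These sums rest on a few very bright genes, and not on the same ones in ES cells and MEF. Thy1 alone averaged 23218 of the fibroblast sum of 36763 to 38511 in ES cells, while Col1a1 was the brightest in MEF at 449763. The closeness of the shares is thus not read as a common share of cells. Single markers differed widely: Col1a1 was 275-fold lower in ES cells, Thy1 5.75-fold and the macrophage marker Cd68 6.62-fold.

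Several pathway genes had probes that differed in ratio by more than the spread between arrays. Smurf1, a ubiquitin ligase that acts on Smad1 and Smad5, stood at 0.75 at its brightest probe, and its lowest probe stood at −0.59. Rgmb, a BMP coreceptor, had probes between −2.04 and 0.07. These values were named after they were seen.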
